A study of Mus musculus with 17 samples.

Results

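The classical inflammatory cytokines and their receptors were followed in the mouse hippocampus from young adulthood to the end of life. They comprise 10 genes chosen by name: the ligands Il1a, Il1b, Il18, Il6, Tnf and Tgfb1, the interleukin 1 receptor antagonist Il1rn, and the receptor genes Il1r1, Tnfrsf1a and Tgfbr1. All 10 were found among the 38355 Ensembl identifiers counted in each library. Hippocampi were dissected by hand from untreated wild type C57BL/6J mice, and polyadenylated RNA was sequenced in 17 libraries. The single-end set holds 5 libraries of mice aged 3 months (3M) and 6 of mice aged 24 months (24M), and the paired-end set holds 3 libraries of 3M mice and 3 of mice aged 29 months (29M). Each aged group was compared with 3M libraries of the same type, so the 2 comparisons share no library, and age cannot be told apart from library type when 24M is set beside 29M. The labels number the libraries without naming animals, so p-values measure the spread between libraries.

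Cytokines are secreted or membrane-shed proteins through which immune cells, glia and neurons signal to each other. Interleukin 1, tumor necrosis factor and interleukin 6 act at minute concentrations through receptors that switch on NF-κB or STAT3, and their genes are largely silent in resting brain and rapidly transcribed by activated microglia. Transforming growth factor β acts in the opposite direction in many settings, and microglia depend on it to keep their resting identity. Because whole hippocampus was sequenced, fewer cells of a type and less RNA per cell cannot be told apart.

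Depth set what could be seen of these genes. Gene counts per library ran from 9213474 to 28438296, so that 3 counts in a library correspond to between 0.105 and 0.326 CPM. CPM is the count of a gene for every 1000000 gene counts of its library. Libraries 1 and 4 of the 24M group differed by less than the sampling noise: among genes with 20 to 99 counts, their squared difference averaged 0.406 of the counting variance, against at least 1.23 in the other 135 pairs. Their rounded mean therefore entered as 1 sample, and 24M has 5 samples. Of the 20 microglia markers followed, which included Aif1, Cx3cr1, P2ry12 and Tmem119, none was at 0 throughout, and all were tested at both ages.

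The 10 genes split into a scarce and a readily measured set. Il1a, Il1b, Il1rn, Il6 and Tnf had at most 20 counts in any library. Il18, Tgfb1, Il1r1, Tnfrsf1a and Tgfbr1 had between 57 and 952. To show what the genomic start sites of these sets look like, the bases upstream of the RefSeq start of 4 scarce ligand genes and of Tgfbr1, the member with the most counts, are printed below 5′ to 3′ on the gene's own strand (build GRCm38.p6, RefSeq sequence). Capitals mark matches to a TATA box (TATAAA, own strand only), and on both strands to an AP-1 site (TGANTCA), a C/EBP site (TTGCNNAA), an SPI1 site (AGGAAGT) and the NF-κB consensus. The windows searched run on a little past the start, and that stretch is not printed.
Il1a, chr2:129309973-129310222, minus strand: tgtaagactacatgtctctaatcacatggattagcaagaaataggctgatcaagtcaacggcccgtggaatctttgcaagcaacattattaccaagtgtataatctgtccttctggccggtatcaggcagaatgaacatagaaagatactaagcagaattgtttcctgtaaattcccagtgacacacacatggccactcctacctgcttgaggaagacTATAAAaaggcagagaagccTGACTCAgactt
Il1b, chr2:129371140-129371389, minus strand: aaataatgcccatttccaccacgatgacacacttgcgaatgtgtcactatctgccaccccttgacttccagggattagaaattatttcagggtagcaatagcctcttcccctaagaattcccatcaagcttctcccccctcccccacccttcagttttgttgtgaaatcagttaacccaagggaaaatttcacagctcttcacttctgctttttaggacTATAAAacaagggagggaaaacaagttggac
Tnf, chr17:35202008-35202257, minus strand: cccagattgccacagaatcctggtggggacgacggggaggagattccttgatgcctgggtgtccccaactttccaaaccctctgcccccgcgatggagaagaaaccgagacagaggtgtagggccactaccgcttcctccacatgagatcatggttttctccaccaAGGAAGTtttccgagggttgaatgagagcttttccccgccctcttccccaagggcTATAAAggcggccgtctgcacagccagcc
Il6, chr5:30012864-30013113, plus strand: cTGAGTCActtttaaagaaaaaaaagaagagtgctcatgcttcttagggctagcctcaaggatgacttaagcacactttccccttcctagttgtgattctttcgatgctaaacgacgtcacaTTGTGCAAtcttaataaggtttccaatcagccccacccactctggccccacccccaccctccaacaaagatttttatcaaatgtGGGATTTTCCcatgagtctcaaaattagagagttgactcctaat
Tgfbr1, chr4:47352972-47353221, plus strand: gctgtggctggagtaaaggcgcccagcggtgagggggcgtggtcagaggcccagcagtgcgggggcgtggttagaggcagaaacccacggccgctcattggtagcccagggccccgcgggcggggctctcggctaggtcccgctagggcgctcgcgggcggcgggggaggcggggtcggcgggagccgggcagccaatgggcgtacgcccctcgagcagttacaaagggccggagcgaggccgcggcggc
TATAAA lay 32, 31 and 29 bases before the start of Il1a, Il1b and Tnf, and it occurs in 8.32% of all 32851 RefSeq promoter windows of the same length. The NF-κB consensus was found 44 bases before the start of Il6, and also at Tgfb1 and at a second start of Il1r1, against 8.46% of all windows. An AP-1 match was present at Il1a, Il1rn and Il6 (7.81% of all windows) and a C/EBP match at Il6 and Il1r1 (10.8%). The SPI1 motif was matched at Tnf alone (9.35%), and the STAT motif TTCNNNGAA at Tnfrsf1a alone (8.30%). No member window held the IRF motif, which 3.44% of all windows contain. CpG dinucleotides numbered 34 in the first Tgfbr1 window, 3 in its second and 30 in the window of Tgfb1. The windows of Il1a, Il1b, Il6 and Il18 held 5, 3, 3 and 1, those of Tnf and Tnfrsf1a 11 each, the 2 of Il1r1 5 and 14, and the 3 of Il1rn 1 to 5. The median of all windows was 7. A match describes letters in a window and was not tied to any change described here.

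Relative to annotated exon length, Il18 was the most abundant of the 10 in every group. Levels per length are CPM divided by the kilobases of annotated exon, merged over all transcripts of the gene. This length was 1031 bases for Il18 and 5042 for Tgfb1. It can exceed the length of the transcript present, and the order under other lengths was not tested. In the 3M single-end group Il18 stood at 10.3 ± 0.886 (SD, n = 5), above Tgfbr1 at 5.22 ± 1.02 and Tnfrsf1a at 4.93 ± 0.395, whose ranges overlapped. Il1r1 followed at 2.41 ± 0.381 and Tgfb1 at 1.10 ± 0.129, each clear of its neighbours in the order. Il1a came next at 0.260 ± 0.0869, and its range overlapped that of Il1b at 0.169 ± 0.0489. Tnf, Il6 and Il1rn averaged 0.0766, 0.0259 and 0.00755 and could not be ranked against each other. The first 6 positions of this order were the same in all 4 groups. The Tgfbr1 and Tnfrsf1a ranges were separate only in the paired-end groups, and Il1a was clear of the next gene in the 24M group and both paired-end groups.

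**Figure D1:**
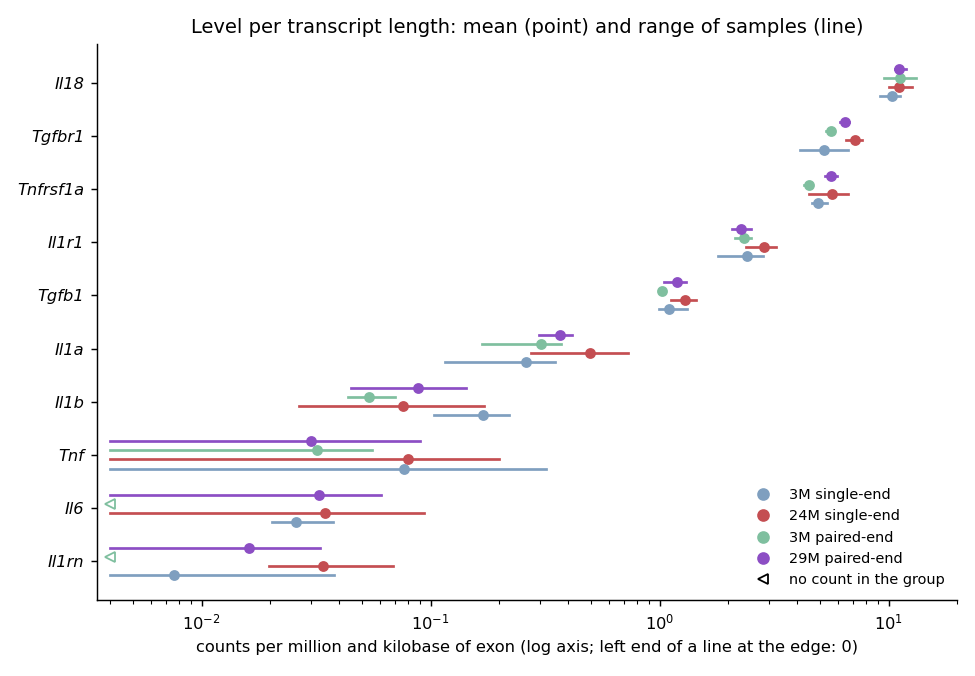
Level per annotated exon length of the 10 genes on a log axis (CPM per kilobase of exon, merged over transcripts). The mean of each group is a point and the range of its samples a line. Open triangles mark groups without a single count. Il18, Tgfbr1, Tnfrsf1a, Il1r1 and Tgfb1 occupied the upper ranks in all 4 groups, and the remaining ligands and Il1rn lay below them.

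None of the 10 genes passed both thresholds at either age. A call required a Benjamini-Hochberg adjusted p up to 0.05 in edgeR's quasi-likelihood test and a log2 fold change of 0.5 or more in size. At 24M, 6 members had enough counts to be tested and 0 were called, where 1.98% of the 15683 genes tested were called in either direction. At 29M, 0 of 5 tested members were called, against 1.45% of 15097 genes. At an unadjusted p of at most 0.05 the numbers were 3 of 6 at 24M, where 26.1% of all genes met it, and 2 of 5 at 29M, where 17.3% did. DESeq2 gave 0 calls among the members at both ages. The estimates were above 0 for 6 of 6 tested members at 24M (49.3% of all genes) and for 3 of 5 at 29M (49.4%). The median log2 fold change of the tested members was 0.25 at 24M and 0.21 at 29M, and the medians over all genes were -0.0032 and -0.0021. The members with too few counts were fitted by edgeR without a filter. At 24M these estimates were below 0 for Il1b and Tnf and above 0 for Il1rn and Il6. At 29M those of Il1a, Il1b, Il1rn, Il6 and Tnf were above 0. All rested on few counts.

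Tgfbr1, the signalling type I receptor kinase for transforming growth factor β, gave the smallest adjusted p among the members. It lies on chromosome 4 from 47353222 to 47414931 of GRCm38. In the 3M single-end samples it measured 26.7, 38.2, 30.9, 31.2 and 43.4 CPM. In the 24M samples it measured 50.1, 48.9, 48.2, 43.2 and 42.7 CPM, the first value being the pooled libraries 1 and 4. Thus 3 of 5 aged samples exceeded every young one, and the other two lay just below the highest young sample, replicate 5. The log2 fold change was 0.46 (95% interval 0.22 to 0.70), which is 1.38-fold, with an edgeR adjusted p of 0.0343. It thereby met the p threshold but not the fold threshold. At any fold, 5.57% of all genes reached an adjusted p of at most 0.05 at 24M, and 2.99% did at 29M, where 0 of 5 members did. Without 3M replicate 5 the log2 fold change was 0.56 (edgeR adjusted p = 0.00378) and Tgfbr1 was called, whereas without 24M replicate 2 its edgeR adjusted p was 0.0930, the highest when single libraries were left out.

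At 29M, Tgfbr1 measured 43.9, 40.2 and 41.9 CPM against 34.9, 37.9 and 36.7 CPM in the paired 3M group. The groups did not overlap, and their difference was 0.21 (0.08 to 0.34) in log2, with an edgeR adjusted p of 0.0764. The estimate at 29M was lower than that at 24M by 0.25 on the log2 scale, with an interval from -0.60 to 0.09 (edgeR adjusted p = 0.592).

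Tgfb1, the ligand of this receptor, lies on chromosome 7 from 25687002 to 25705077. Its single-end 3M samples measured 5.47, 6.63, 5.06, 5.02 and 5.52 CPM. At 24M they measured 5.99, 6.95, 5.67, 6.64 and 7.27 CPM. The 2 groups overlapped through 3M replicate 2, the highest young sample. This gave a log2 fold change of 0.23 (-0.00 to 0.47), with an edgeR adjusted p of 0.198. In the paired-end set the 3M values were 5.22, 5.05 and 5.19 CPM and the 29M values 6.58, 5.28 and 6.12 CPM. All 29M samples lay above all 3M samples, the lowest by a small margin. Its log2 fold change was again 0.23 (-0.08 to 0.53), with an edgeR adjusted p of 0.438.

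Tnfrsf1a encodes the death domain receptor through which tumor necrosis factor activates NF-κB in most cell types, and lies on chromosome 6 from 125349362 to 125362484. The 3M single-end samples measured 12.1, 13.9, 11.96, 13.8 and 12.03 CPM. The 24M samples measured 11.7, 17.3, 12.6, 15.5 and 16.5 CPM. The aged samples spread on both sides of the young ones, with 3 above all of them and 1 below. The log2 fold change was 0.21 (-0.03 to 0.44), with an edgeR adjusted p of 0.246. In the paired-end set, 3M samples measured 11.03, 11.8 and 11.9 CPM and 29M samples 15.4, 13.7 and 14.5 CPM. These groups were separate, with a log2 fold change of 0.33 (0.15 to 0.52) and an edgeR adjusted p of 0.0604. With no filter on low counts the edgeR adjusted p was 0.0333, still below the fold threshold. The 3 members whose 29M samples all lay above their 3M samples were Tnfrsf1a, Tgfb1 and Tgfbr1, of 5 tested, where 9.05% of all genes tested did so. At 24M no tested member was separated in this way, and 2.94% of all genes were.

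**Figure D2:**
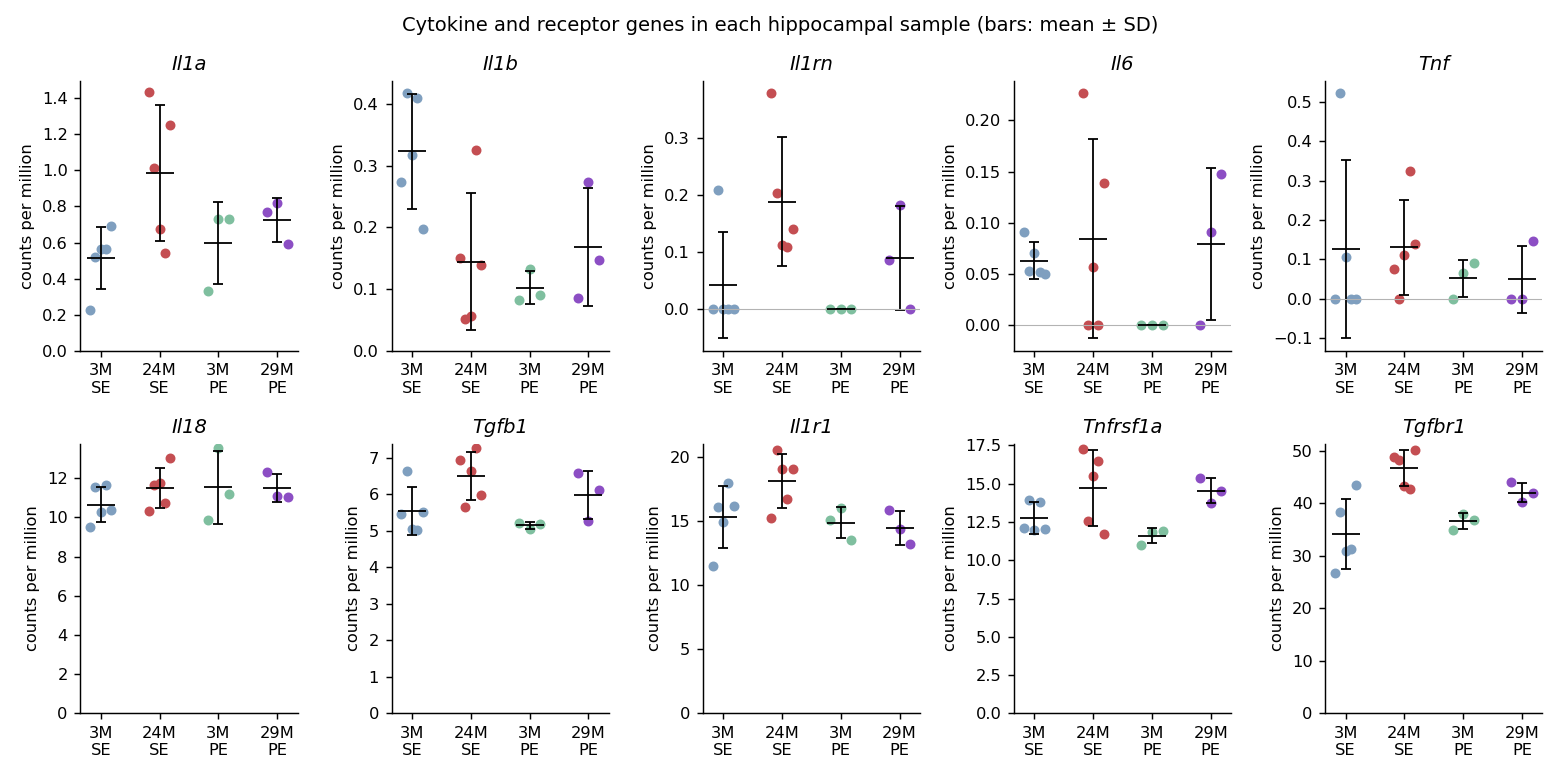
CPM of each of the 10 genes in every sample, by group (SE, single-end; PE, paired-end), with libraries 1 and 4 of the 24M group as 1 sample and black bars for mean ± SD; lower ends of bars below 0 have no physical meaning. The panels of Tnfrsf1a, Tgfb1 and Tgfbr1 show separate 3M and 29M paired-end samples, and those of Il1rn, Il6 and Tnf show mostly 0 to a few counts.

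Il1r1, the signalling receptor for both forms of interleukin 1, lies on chromosome 1 from 40225080 to 40317257. It measured 11.5, 16.1, 14.9, 18.03 and 16.2 CPM in the 3M single-end samples. At 24M it measured 19.1, 15.3, 20.6, 19.1 and 16.7 CPM. The groups overlapped, with 3 aged samples above every young one. Its log2 fold change was 0.26 (0.01 to 0.51), with an edgeR adjusted p of 0.179. Paired-end values were 15.1, 16.01 and 13.6 CPM at 3M and 15.9, 14.4 and 13.2 CPM at 29M. These samples were interleaved, with a log2 fold change of -0.04 (-0.26 to 0.18) and an edgeR adjusted p of 0.874. The 29M estimate minus the 24M estimate was -0.30 (-0.69 to 0.08), with an edgeR adjusted p of 0.573, the smallest of the 6 members tested for this difference. Among all 16055 genes, 0 passed an adjusted p of 0.05 for that difference in edgeR, 1674 (10.4%) had an unadjusted p of at most 0.05, and DESeq2 gave 0 among the members.

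Il18 encodes a cytokine that, like interleukin 1β, is released after cleavage by the inflammasome protease caspase 1. Its gene lies on chromosome 9 from 50554827 to 50581840. The 3M single-end samples measured 9.49, 11.5, 10.3, 11.6 and 10.4 CPM, and the 24M samples 13.02, 10.3, 11.6, 11.8 and 10.7 CPM. The groups overlapped over most of their range. The log2 fold change was 0.12 (-0.07 to 0.31), with an edgeR adjusted p of 0.392. Paired-end samples measured 9.87, 13.6 and 11.2 CPM at 3M and 12.3, 11.1 and 11.1 CPM at 29M. Here the 29M samples fell within the 3M range, and the log2 fold change was -0.01 (-0.26 to 0.24), with an edgeR adjusted p of 0.975. An Il18 level more than 1.24-fold higher at 24M lies outside the 95% interval.

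Il1a, which encodes a cytokine that damaged cells release in active form, had 4 to 20 counts per library. It lies on chromosome 2 from 129299610 to 129309972, and 222 of its exon bases overlap the antisense gene Gm14023, so reads there may not be assigned to either. Its 3M single-end samples measured 0.228, 0.522, 0.563, 0.563 and 0.690 CPM. The 24M samples measured 1.25, 1.44, 1.01, 0.675 and 0.543 CPM. The aged samples reached from within the young range to above it, with 3 of 5 above every young sample. The log2 fold change of 0.96 (0.28 to 1.63) was the largest among the members that passed the filter on low counts, with an edgeR adjusted p of 0.0824. Over all alternatives this p ran from 0.0410 to 0.212. It was 0.0410 with all 4 groups in 1 edgeR fit, 0.0419 with libraries 1 and 4 kept apart and 0.0476 without 3M replicate 5, and Il1a was called in those 3 fits alone. Gm14023 itself averaged 0.212 CPM at 3M and 0.165 CPM at 24M.

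At 29M, Il1a stayed under the filter on low counts, so single values were compared with an exact permutation test of the mean CPM. The 3M paired-end samples measured 0.332, 0.731 and 0.729 CPM and the 29M samples 0.769, 0.819 and 0.590 CPM. They overlapped, with a two-sided exact permutation p of 0.5, where 3 samples against 3 cannot give less than 0.1.

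**Figure D3:**
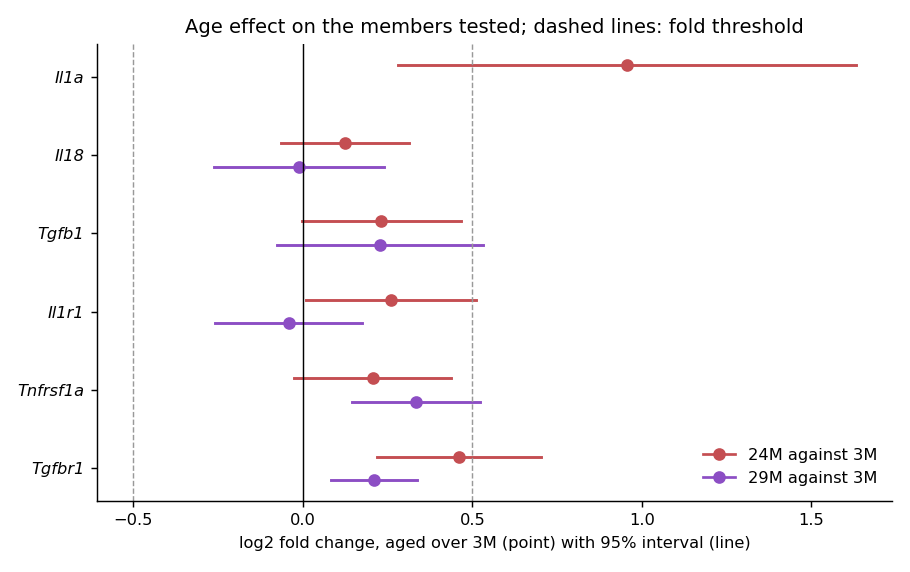
Log2 fold change of aged over 3M samples (points) with 95% intervals (lines) for the members that passed the filter on low counts, from edgeR's quasi-likelihood fits. Dashed lines mark the fold threshold of 0.5. The Il1a estimate at 24M was the largest and had the widest interval, and Il18 and Il1r1 at 29M lay close to 0.

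Il1b, the inducible interleukin 1 that needs caspase 1 for release, lies next to Il1a on chromosome 2 from 129364570 to 129371139 and shares 25 exon bases with the antisense gene Il1bos. It had 1 to 9 counts per library and was not tested in the filtered fits. The 3M single-end samples measured 0.274, 0.418, 0.316, 0.410 and 0.197 CPM, and the 24M samples 0.139, 0.151, 0.0506, 0.0563 and 0.326 CPM. Thus 4 of 5 aged samples lay below every young one and replicate 6 lay within their range. The first of these 4 depends on rounding. Libraries 1 and 4 held 2 and 3 counts (0.142 and 0.204 CPM) and entered as 2 counts. Library 4 alone lay above the lowest young sample. The means were 0.323 ± 0.0933 (SD, n = 5) and 0.145 ± 0.111 (n = 5), with a two-sided exact permutation p of 0.0397. This was 1 of 9 such tests, 4 at 24M and 5 at 29M, and 5 samples against 5 can give no less than 0.00794. In the edgeR fit without a filter, adjusted over all genes, the log2 fold change was -1.33 (-2.37 to -0.29) with an adjusted p of 0.148. Without single libraries the exact permutation p ran from 0.0159 to 0.0635 and was at most 0.05 in 4 of 11 cases. At 29M the values were 0.0855, 0.273 and 0.147 CPM against 0.0829, 0.133 and 0.0911 CPM at 3M, which is 1 to 3 counts in every library. The exact permutation p there was 0.3.

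Il1rn encodes the antagonist that occupies the interleukin 1 receptor without signalling, and lies on chromosome 2 from 24336853 to 24351494. Its counts in the 3M single-end libraries were 0, 4, 0, 0 and 0. In the 6 libraries of the 24M group they were 2, 5, 4, 1, 2 and 1. All 24M libraries thus held at least 1 count, whereas 1 of 5 young libraries did. Libraries 1 and 4, with 2 counts and 1 count, are not independent here and entered as 1 sample. Rounding set its count to 2. Mean levels were 0.0418 CPM at 3M and 0.188 CPM at 24M, with a two-sided exact permutation p of 0.0397. In the edgeR fit without a filter the log2 fold change was 2.16 (0.40 to 3.92), with an adjusted p of 0.165. Without single libraries the exact permutation p ran from 0.00794 to 0.111, and the lowest came without 3M replicate 2, the young library with 4 counts. In the paired-end libraries the counts were 0, 0 and 0 at 3M and 1, 2 and 0 at 29M. The 3M group's 0 of 38094141 counts allows a level of up to 0.0968 CPM, the upper end of the 95% interval for counting error. The 29M mean of 0.0891 CPM lay below that and rested on 3 counts (exact permutation p = 0.4).

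Il6, the ligand that signals through STAT3 after binding its receptor and the shared subunit gp130, was close to undetectable. Its gene lies on chromosome 5 from 30013114 to 30019981. Counts were 2, 1, 2, 1 and 1 in the 3M single-end libraries and 1, 3, 0, 2, 1 and 0 in the 24M libraries. In the paired-end libraries they were 0, 0 and 0 at 3M and 0, 1 and 2 at 29M. No library had more than 3 counts, so no fold is given. The 0 counts of the 3M paired-end group allow up to 0.0968 CPM, as for Il1rn. The exact permutation p was 0.651 at 24M and 0.4 at 29M. A difference in Il6 was not detectable at this depth.

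Tnf, the trimeric ligand of the receptor encoded by Tnfrsf1a, lies on chromosome 17 from 35199381 to 35202007. Counts in the 3M single-end libraries were 0, 10, 3, 0 and 0. At 24M they were 2, 1, 0, 1, 2 and 3. The 10 counts of 3M replicate 2 made up most of the young total, and that library was also the one young single-end library with Il1rn counts. Paired-end counts were 0, 1 and 1 at 3M and 0, 0 and 2 at 29M. Mean levels were 0.126 and 0.131 CPM at 3M and 24M (exact permutation p = 0.968) and 0.0525 and 0.0492 CPM at 3M and 29M (exact permutation p = 1.0). No difference in Tnf was detectable at this depth.

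Microglia are the main brain source of several of these cytokines, and their markers moved with age in the same samples. The summed level of the 20 microglia markers ranged from 543 to 674 CPM in the 3M single-end samples and from 750 to 846 CPM at 24M. It ranged from 527 to 560 CPM in the paired 3M group and from 714 to 788 CPM at 29M. The sums did not overlap between ages in either set. Among all single genes tested, 2.94% at 24M and 9.05% at 29M had every aged sample above every 3M sample. No such share was computed for sums of genes. Of the 20 markers, 24M had 5 called higher (Trem2, Tyrobp, P2ry12, C1qa and Ctss, of which all but P2ry12 are named after their values were seen), 29M had 9, and neither had any called lower, where 1.34% of all genes were called higher at each age. P2ry12, a purinergic receptor of resting microglia, rose at 24M by a log2 fold change of 0.52 (edgeR adjusted p = 0.0342), and Tmem119 rose at 29M by 0.51 (edgeR adjusted p = 0.0183). Neither gene was called at the other age. P2ry12 reached 0.21 at 29M (edgeR adjusted p = 0.0815). Tmem119 reached 0.36 at 24M (edgeR adjusted p = 0.0202), short of the fold threshold. Aif1 and Cx3cr1 were not called at either age. Cx3cr1 at 29M met the p threshold but not the fold threshold (0.36, edgeR adjusted p = 0.00234). Its 24M estimate was 0.20 (edgeR adjusted p = 0.0746). Aif1 estimates were 0.36 at 24M and 0.34 at 29M (edgeR adjusted p = 0.223 and 0.293). The part of the microglia markers in the values of Tgfbr1, Tgfb1, Tnfrsf1a, Il1a and Il1b was not tested.

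The genes whose profile was most like that of Tgfbr1 were P2ry12, Ptp4a2 and Fmnl2. Pearson's r was 0.973, 0.955 and 0.953 across the 16 samples, on log2 CPM centred on the 3M mean of the same library type, among 14518 genes. These values describe samples that share age and library, and no p is given. P2ry12 measured 26.1, 35.4, 27.4, 29.3 and 44.3 CPM in the 3M single-end samples, in the order used for Tgfbr1. Replicate 5, the highest young sample for Tgfbr1, was thus also the highest for P2ry12, and replicate 1 was the lowest for both. At 24M, P2ry12 measured 44.6, 50.3, 50.2, 41.5 and 45.4 CPM. The order of samples differed there, as the pooled libraries 1 and 4 were highest for Tgfbr1 and replicate 2 was highest for P2ry12. In the paired-end set P2ry12 measured 34.6, 37.3 and 36.4 CPM at 3M and 44.0, 39.3 and 41.3 CPM at 29M. This was the same order of samples as Tgfbr1 within both groups. P2ry12 was picked as the gene most alike over these same samples, so agreement in order was favoured by the choice.

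**Figure D4:**
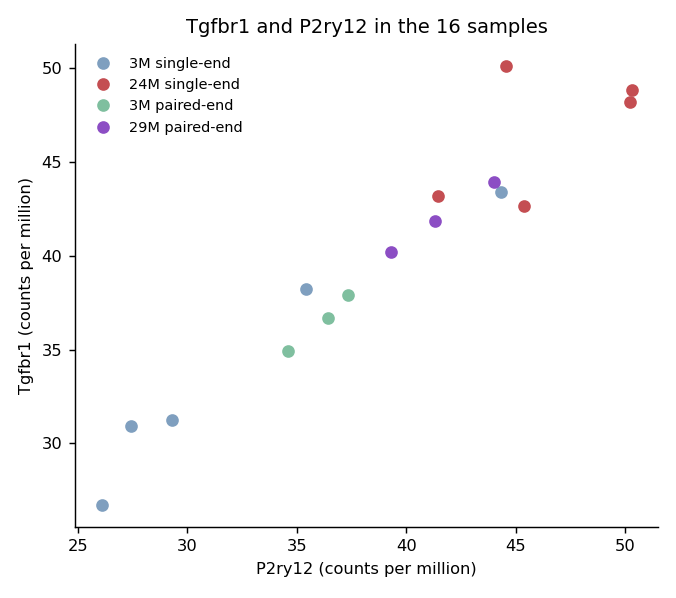
CPM of Tgfbr1 against CPM of P2ry12 in the 16 samples, coloured by group; both axes start above 0. The young single-end sample with 43.4 CPM of Tgfbr1 had 44.3 CPM of P2ry12 and lay among the aged samples.

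The pathways around the 10 genes were read from 6 lists of 189 genes, of which 184 were matched to identifiers. At 24M, 4 of the 146 list genes counted were called higher (Il33, Gsdmd, Osmr and Il13ra1) and 0 lower, where 1.34% of all genes were called higher and 0.638% lower. At 29M, 5 of 136 were called higher (Il33, Osmr, Socs3, Il21r and Csf3r) and 0 lower, against 1.34% and 0.113% of all genes. Median log2 fold changes over the lists were 0.08 and 0.10. Which genes were called depended in part on single libraries, as given with each gene.

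In the IL-1 family and inflammasome list, 2 of 20 genes were called at 24M and 1 of 18 at 29M. Il33, an IL-1 family alarmin kept in the nuclei of glia, ranged from 53.4 to 75.8 CPM at 3M and from 102 to 117 CPM at 24M. It rose by a log2 fold change of 0.83 (0.66 to 0.99, edgeR adjusted p = 0.000109) and stayed called without any single library. At 29M it ranged from 90.9 to 105 CPM against 52.7 to 78.4 CPM and rose by 0.57 (0.36 to 0.77, edgeR adjusted p = 0.00528). Without 3M paired-end replicate 1 this was 0.44, under the fold threshold. Gsdmd encodes gasdermin D, the pore through which interleukin 1β leaves the cell. It rose at 24M from 1.73 ± 0.380 to 3.01 ± 0.288 CPM (SD, n = 5 in each group), a log2 fold change of 0.80 (edgeR adjusted p = 0.0214). Without any single library it stayed called, and with both 24M libraries 1 and 4 left out its edgeR adjusted p was 0.0571. At 29M its log2 fold change was 0.64 (0.14 to 1.15), with an edgeR adjusted p of 0.176.

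In the IL-6 family and JAK-STAT3 list, 1 of 19 genes was called at 24M and 2 of 18 at 29M. Osmr, the oncostatin M receptor subunit that pairs with gp130, ranged from 5.17 to 7.63 CPM at 3M and from 10.1 to 13.4 CPM at 24M. It rose by a log2 fold change of 0.81 (0.55 to 1.06, edgeR adjusted p = 0.00304). At 29M it ranged from 8.48 to 10.01 CPM against 4.23 to 5.83 CPM and rose by 0.89 (0.58 to 1.21, edgeR adjusted p = 0.00442). Osmr stayed called at both ages without any single library. Socs3, the feedback inhibitor induced by STAT3, rose at 29M from 1.27 ± 0.190 to 2.53 ± 0.335 CPM (SD, n = 3 in each group), a log2 fold change of 0.999 (edgeR adjusted p = 0.0452). That call was lost without any 1 of the 6 libraries (edgeR adjusted p from 0.0895 to 0.133) and in DESeq2 (adjusted p = 0.289). At 24M the Socs3 log2 fold change was 0.20 (edgeR adjusted p = 0.532).

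In the TGF-β family and SMAD list, median log2 fold changes were 0.08 at 24M and 0.07 at 29M over the 27 and 26 genes counted. In the TNF family list 0 of 32 genes were called at 24M and 0 of 31 at 29M. In the list of NF-κB subunits and inhibitors it was 0 of 19 and 0 of 18, with medians of 0.08 at both ages. Over all genes 1.98% were called at 24M and 1.45% at 29M, and a count of 0 in lists of this size is near those shares.

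Among the other interleukins, colony stimulating factors and their receptors, 1 of 29 genes was called at 24M and 2 of 25 at 29M. Il13ra1, a shared chain of the interleukin 4 and 13 receptors, rose at 24M from 8.16 ± 1.67 to 11.5 ± 0.299 CPM (SD, n = 5 in each group), a log2 fold change of 0.51 (edgeR adjusted p = 0.0371). It stayed called in 4 of 11 fits that left out 1 library, where its log2 fold change ran from 0.39 to 0.58 and its edgeR adjusted p from 0.0103 to 0.0980. With both 24M libraries 1 and 4 left out that p was 0.0774. At 29M the Il13ra1 log2 fold change was 0.27 (edgeR adjusted p = 0.357). Il21r, the interleukin 21 receptor, rose at 29M from 1.25 ± 0.249 to 3.29 ± 0.271 CPM (SD, n = 3 in each group), by 1.42 (0.91 to 1.92, edgeR adjusted p = 0.00488), and stayed called without any single library. Its log2 fold change at 24M was 0.26 (edgeR adjusted p = 0.397). Csf3r, the receptor for granulocyte colony stimulating factor, rose at 29M from 5.62 ± 0.304 to 8.75 ± 0.815 CPM (SD, n = 3 in each group), by 0.65 (edgeR adjusted p = 0.0117), and stayed called in 3 of 6 fits that left out 1 library (edgeR adjusted p up to 0.0860). DESeq2 gave it an adjusted p of 0.0790.

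Markers of blood-borne cells were read beside these receptors. The 10 neutrophil and monocyte markers summed to 0.746 to 1.73 CPM at 3M and 1.40 to 3.00 CPM at 29M, and the 10 T cell markers to 2.07 to 3.73 and 3.73 to 4.20 CPM. In the single-end set the former summed to 1.48 to 3.60 CPM at 3M and 2.23 to 6.27 CPM at 24M, and the latter to 2.46 to 8.04 and 2.23 to 4.12 CPM. Both lists were scarce beside microglia markers in all 4 groups, but the receptors were scarce as well. At 29M the lists averaged 2.44 and 4.04 CPM, and Il21r and Csf3r averaged 3.29 and 8.75 CPM. The part of these cells in the receptor values was not tested.

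**Figure D5:**
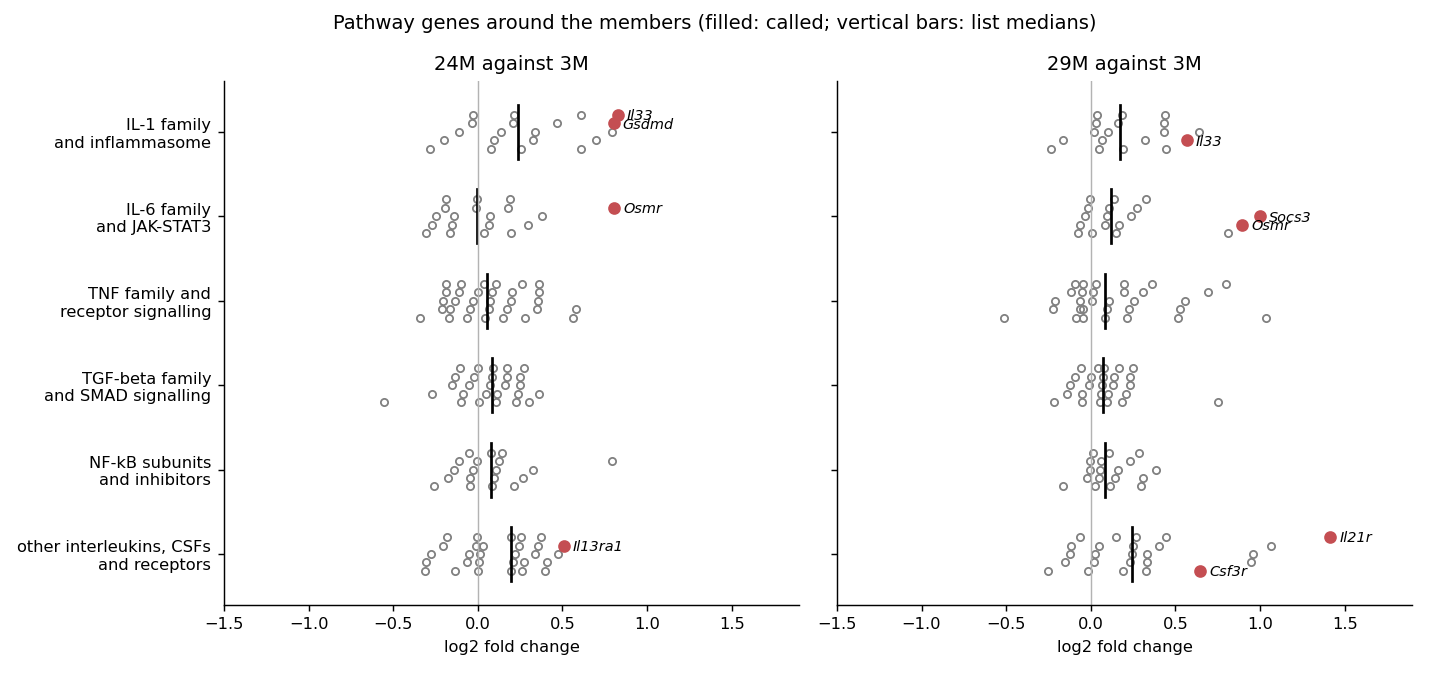
Log2 fold changes of the tested genes of the 6 pathway lists at 24M (left) and 29M (right), each point a gene. Filled points are called genes with their names, and vertical bars are list medians. All called genes lay to the right of 0, and most others lay near 0.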

How the data were processed

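Hippocampal RNA was measured in 17 libraries in 4 groups given by the labels. The authors aligned reads with STAR and deposited HTSeq counts per gene, without normalization; the submitters' processing notes give STAR 2.3.0 and build GRCm38.p2, with an annotation for counting not given in the sources used here. HTSeq summary lines were excluded from all totals (its no-feature line held 8.59% to 15.9% of reads).

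The quasi-likelihood test of edgeR 4.0.16 under R 4.3.3 used TMM factors and the package's default filter, and p-values were adjusted by Benjamini-Hochberg across every gene in the fit. Intervals of log2 fold changes were derived from the F statistic. Genes under the filter were compared by exact permutation of mean CPM. CPM used total gene counts, and exon lengths, positions and names came from GENCODE on GRCm38 (36602 of 38355 identifiers named). Only the edgeR fit was tested on simulated data, with the same variability for every gene and with changes placed in well counted genes. Changes in scarce genes and the exact permutation test were not simulated. Floors made from counts cover counting error only.

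The 10 genes, the lists and the naming rule (all 10 members, every called pathway gene up to 5 per list, 4 microglia markers, and the 3 genes most alike to the member with the smallest adjusted p) were chosen with earlier results of these data known. The same holds for counting 24M libraries 1 and 4 once. Replicate numbers did not pair the samples. Alternatives were DESeq2 1.42.0, its size factors in edgeR, other filters, all groups in 1 fit, the replicate number as a block, no fold threshold, each library left out, and the 24M pair kept apart or left out, and for scarce genes log2(CPM + 0.1). The lists of astrocyte, neuron, oligodendrocyte, vascular, choroid plexus and red blood cell markers were counted as well (closing section). The result of 1 pathway gene is not reported here, and the list counts, medians and pathway plot leave that gene out. Splicing and editing were not analysed here.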

Additional observations from a re-analysis of the deposited data

Results flagged for a closer look

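Of 36 groups of at least 4 samples of the named genes, 4 held a sample whose gap to its nearest neighbour was a large share of the group's range, where chance gives about 1 in 20, or 1.8. In the 3M single-end group, replicate 2 stood apart for Il1rn, with 0.209 CPM against 0 in the others (gap over range 1.0), and for Tnf, with 0.522 CPM against 0.105 in the next (0.798). This library also had the highest summed microglia markers of its group, 674 CPM. Il1rn had counts in this library alone, which by itself sets the gap over range to 1.0. Tnf had 0 counts in most libraries of the group. The chance share of 1 in 20 may not apply to such counts. Thus 4 against 1.8 does not measure an excess. At 24M, replicate 5 stood apart for Il33, with 102 CPM against 115 in the next (0.907), and replicate 2 for Socs3, with 3.10 CPM against 2.28 (0.728).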

How the results depend on the processing

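With 5 samples in each group at 24M and 3 at 29M, and at most 20 counts per library for Il1a, Il1b, Il1rn, Il6 and Tnf, fold changes of these 5 genes are poorly determined. No member was called at 29M under any alternative run. At 24M, 1 member was called with all 4 groups in 1 fit, 1 with no fold threshold, 1 with libraries 1 and 4 kept apart, and 0 to 2 when single libraries were left out (2 without 3M single-end replicate 5). Of the pathway genes at 24M (4 called higher), 7 were called with no fold threshold, 2 without the pair, and 3 to 5 without single libraries. At 29M (5 called higher), 3 were called by DESeq2, 12 with no filter, 8 with no fold threshold, and 3 to 6 without single libraries (3 when 3M replicate 1, 3M replicate 3, 29M replicate 1 or 29M replicate 3 was the one omitted). The replicate number as a block gave 2 pathway calls at 24M (Gsdmd and Il13ra1 had edgeR adjusted p of 0.145 and 0.135), and over all genes 58 higher and 25 lower in place of 210 and 100; at 29M it gave 203 and 22 in place of 202 and 17. Same-numbered samples did not deviate together (correlations from -0.137 to 0.0535 in 4 pairs at 24M and from -0.0683 to 0.0961 in 3 at 29M, with 1 sample in each set closest to its own number), so the numbers were not read as pairing. Signs turned for 7 results. Il18 at 29M was 0.0053 under the block and -0.0967 to 0.124 without single libraries, Il1r1 at 29M -0.108 to 0.0394, and the Tgfb1 difference between ages 0.0088 with the pair kept apart and -0.0766 to 0.0334 without single libraries. In CPM, Tnf at 24M was -0.0049 with the pair kept apart and -0.0437 to 0.104 without single libraries, Il6 at 24M -0.0140 to 0.0427, Il1a at 29M -0.0038 to 0.197 and Tnf at 29M -0.0525 to 0.0212. Of 622 recomputed values for single genes, 551 kept their direction and side of the threshold, 39 missed a threshold that the reported value met, 5 met one that it had missed and 27 turned sign. In every case the cause was not tested.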

Other observations

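Few markers of the other cell types were called, and those named here were chosen after their values were seen. At 24M, 1 of 12 astrocyte markers was called higher (Gfap), 0 of 12 neuron, 0 of 10 oligodendrocyte and 0 of 9 choroid plexus markers were called, and 1 of 13 endothelial and pericyte markers was called lower (Cldn5). At 29M, Gfap was again the 1 astrocyte marker called higher and 0 were called in the neuron, oligodendrocyte, choroid plexus and vascular lists. Of the 13 endothelial and pericyte markers, 1 had an estimate above 0 at 29M (median log2 fold change -0.12) and 8 at 24M (median 0.07). Over all genes tested, 49.4% at 29M and 49.3% at 24M were above 0. The 5 red blood cell markers summed to 53.4 to 109 CPM at 3M and 77.1 to 542 CPM at 24M (0 called), and to 69.0 to 85.0 and 77.1 to 167 CPM in the paired-end set (Alas2 and Hba-a1, 2 of 5, called higher at 29M).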
